A study of Bos taurus with 14 samples.

Results

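Day-4 bovine embryos that had passed genome activation in the oviduct of a cow, whether dried off or lactating, were compared as 1 in vivo side with embryos kept in culture throughout. The comparison took in 9 of the 14 libraries of the series: 3 from dried-off cows (DRY), 3 from lactating cows (LACT) and 3 from in vitro culture (IVC), with DRY and LACT given equal weight whatever their spread. All embryos, including those on the in vivo side, were made in vitro from oocytes of abattoir ovaries and the sperm of 1 bull, and no genotype was altered. At the stage of 2 to 4 cells, on Day 2, embryos were placed in the oviduct of primiparous Holstein-Friesian cows that had been milked since calving (LACT) or never milked (DRY), or stayed in synthetic oviduct fluid with serum albumin (IVC). Each Day-4 library was a pool of 5 embryos at the 16-cell stage, and an in vivo pool came from 1 cow. The in vivo embryos were in the oviduct from Day 2 to Day 4 only, and they were also flushed from oviduct and uterus, a handling step that IVC embryos did not go through and that cannot be told apart from the oviduct itself. The 5 Day-2 libraries, pools of 5 embryos before transfer, served to place each gene before the groups parted.

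A cleavage-stage embryo runs at first on RNA that the oocyte stored. In cattle the major wave of embryonic genome activation falls at the 8- to 16-cell stage, when maternal transcripts are cleared and the embryo's own genes for ribosomes, mitochondria and membrane traffic come on. In the natural course this takes place in the oviduct, whose epithelium secretes nutrients, growth factors and vesicles, and whose fluid changes with the metabolic state of the cow.

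The Day-4 libraries held 22.7 to 40.4 M counts on 27607 Ensembl genes, and 3 counts, the smallest signal taken as detected, equalled 0.0743 to 0.132 CPM, the unit that scales counts to the library total (counting error only). Within every group 1 library sat midway between its companions: IVC replicate 1, DRY replicate 3 and LACT replicate 3 had a CPM between those of the others in 97.5% to 98.6% of genes averaging 5 CPM or more in the group, and within 5% of their mean in 83.2% to 97.1%. For the other 6 libraries these shares were 0.557% to 1.66% and 6.25% to 7.83%. Such libraries add no independent spread, so the tests used the other 6 (2 per group), and results with all 9 stand beside them. In every Day-4 library more genes had exactly 1 count (766 to 1493) than 2 counts (136 to 416). Among the 6 libraries tested, the DRY libraries detected fewer genes at 1 CPM or more (9882 and 10003) than those of IVC (10471 and 10985) and LACT (10841 and 11021), values that bear on every gene listed below as silent in DRY and whose part in those results was not tested.

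With 2 libraries per group, few genes passed the test between oviduct and culture, and only large changes did. The smallest change that passed was 1.75 in size on the log2 scale. A difference of more than 1 either way was seen in 36.3% of all genes tested. At a false discovery rate (FDR) under 0.05, 98 of 12069 genes tested (0.812%) differed between the mean of DRY and LACT and IVC: 25 were higher in the oviduct groups (0.207%) and 73 lower (0.605%; edgeR quasi-likelihood test, n = 2 libraries per group). At an unadjusted p under 0.05, 1176 genes (9.74%) were past the threshold, 394 higher (3.26%) and 782 lower (6.48%). With all 9 libraries 1576 genes were called (13.1%), 618 higher (5.12%) and 958 lower (7.94%), and the 98 genes were all among them in the same direction. For 1745 genes (14.5%) the CPM of the 6 oviduct libraries did not overlap those of the 3 IVC libraries, with 756 higher (6.26%) and 989 lower (8.19%). Since the midway libraries lie between their companions, this in effect separates 4 libraries from 2. Random order would do so for a share of 0.0667 in each direction, near the shares seen, so lack of overlap alone is weak evidence of a difference. The median log2 difference over all genes tested was -0.09. In pools of whole embryos, fewer cells that express a gene and less of its RNA per cell cannot be told apart.

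Many called genes were silent in IVC or in at least 1 oviduct group. Of the 25 genes higher in the oviduct groups, 24 had at most 3 counts in every IVC library, referred to below as silent, and 1 had at least 10 counts in all 9 libraries. Of the 73 genes lower in the oviduct groups, 62 were silent in DRY, 24 in LACT and 20 in both, and 6 had at least 10 counts in all 9 libraries. When only the 8581 genes with at least 10 counts in every tested library were fitted, 2 genes were called, both lower in the oviduct groups, and 688 had an unadjusted p under 0.05.

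**Figure D1:**
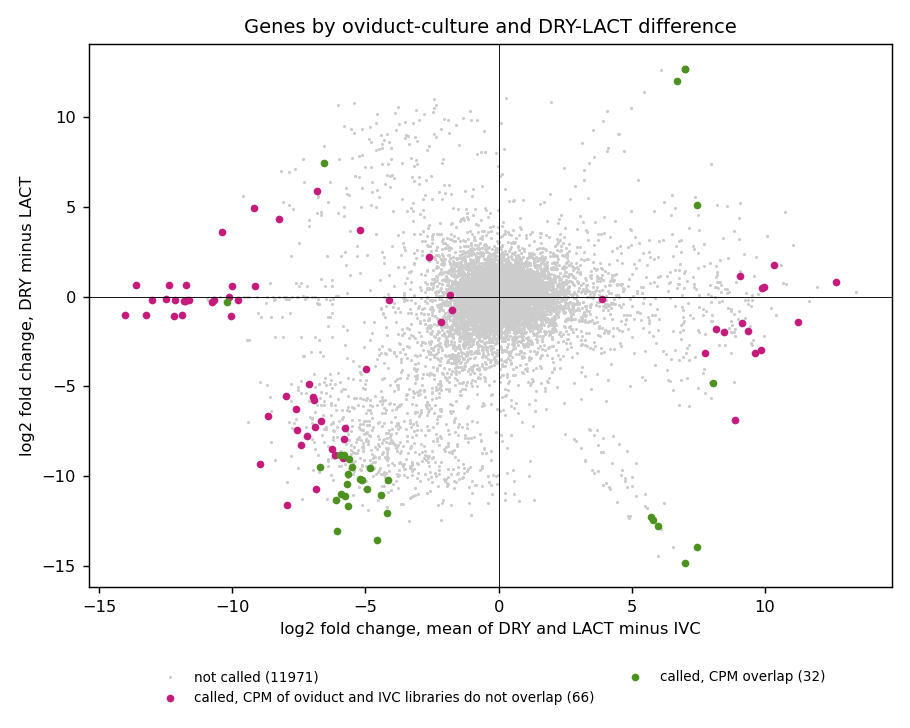
Each point is 1 of 12069 genes. The horizontal axis is the log2 fold change of the mean of DRY and LACT minus IVC, and the vertical axis that of DRY minus LACT. The 66 called genes whose CPM do not overlap (magenta) include a band near 0 on the vertical axis and a cloud of lower genes with strongly negative DRY minus LACT values. The 32 called genes whose CPM overlap (green) lie far from 0 on the vertical axis, with 1 exception at the left.

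A first set of genes was expressed in both oviduct groups and silent in culture. Over all genes tested, 27 were silent in IVC and had at least 1 CPM in every oviduct library, and 14 of them were called. In the 2 tested IVC libraries 20 of these 27 had exactly 1 count in each. ENSBTAG00000002294, which the study lists under DNA binding, had 0, 1 and 1 counts in IVC replicates 1 to 3. Its level was 227, 604 and 401 CPM in DRY and 124, 351 and 246 CPM in LACT. All oviduct libraries stood clear of IVC while DRY and LACT overlapped, and the tested oviduct libraries were on average at least 2473-fold higher than IVC (FDR = 8.92e-05). On Day 2 the gene was at 1.61 ± 1.06 CPM (SD, n = 5), from which the oviduct groups rose (log2 difference 7.51 in the fit with Day 2).

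ENSBTAG00000004321 also had 0, 1 and 1 counts in IVC. It stood at 90.9, 133 and 104 CPM in DRY and at 35.6, 32.3 and 33.9 CPM in LACT, at least 553-fold above IVC (FDR = 1.52e-04). DRY was above LACT in every library, a difference that did not pass the test (log2 1.75, FDR = 0.420). ENSBTAG00000008900 stood at 63.2, 77.4 and 63.8 CPM in DRY and at 320, 57.4 and 180 CPM in LACT, against the same 0, 1 and 1 counts in IVC, at least 981-fold higher (FDR = 4.41e-04). Its LACT libraries enclosed the DRY range. ENSBTAG00000004905, listed under methylation, stood at 95.9, 11.9 and 49.6 CPM in DRY and 45.8, 33.1 and 39.5 CPM in LACT, at least 354-fold above IVC (FDR = 4.95e-03), and its call was lost when either tested IVC library was left out (highest FDR = 0.116).

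Some of these genes had been present before transfer. ENSBTAG00000002647 was at 22.5 ± 7.18 CPM on Day 2 (SD, n = 5). It stood at 14.6, 10.8 and 10.6 CPM in DRY and at 71.3, 155 and 117 CPM in LACT, and at 0, 1 and 1 counts in IVC (at least 478-fold higher, FDR = 4.41e-04). IVC was below Day 2 (FDR = 2.28e-05), while the mean of the oviduct groups differed from Day 2 by 0.66 on the log2 scale, which did not pass the test (FDR = 0.228). ENSBTAG00000008756, a second gene listed under DNA binding, was also highest in LACT, with 7.31 ± 5.50 CPM on Day 2, 14.8, 17.5 and 15.01 CPM in DRY, 75.3, 50.1 and 62.6 CPM in LACT and 0, 1 and 1 counts in IVC (at least 299-fold higher, FDR = 9.79e-04). ENSBTAG00000019399 stood at 2.91, 1.20 and 1.48 CPM in DRY and at 330, 170 and 246 CPM in LACT, with Day 2 between them at 9.41 ± 5.22 CPM. It was the one non-overlapping higher gene in which DRY and LACT differed as well (log2 -6.90, FDR = 5.83e-04).

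For the remaining genes named on this side the call depended on single libraries. ENSBTAG00000053878 was at 2.65 to 28.5 CPM in DRY and 61.9 to 185 CPM in LACT (FDR = 0.0103), ENSBTAG00000001956 at 26.98 to 48.7 CPM in DRY and 4.65 to 30.9 CPM in LACT (FDR = 0.0116), and ENSBTAG00000054381 at 2.704 to 13.9 CPM in DRY and 26.2 to 41.5 CPM in LACT (FDR = 0.0204). All had 0, 1 and 1 counts in IVC, and leaving out either tested IVC library ended the call of each of them, as did leaving out DRY replicate 1 for ENSBTAG00000001956 and either tested LACT library for ENSBTAG00000054381. ENSBTAG00000007678, singled out after its values were seen as the only higher gene with at least 10 counts in all libraries, held 3.08, 3.43 and 3.12 CPM in IVC, 50.0, 40.2 and 40.2 CPM in DRY and 23.3, 78.7 and 53.1 CPM in LACT. It was higher by 3.88 ± 0.76 on the log2 scale (SE, FDR = 0.0445) and kept its call in 1 of 6 fits without a library.

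**Figure D2:**
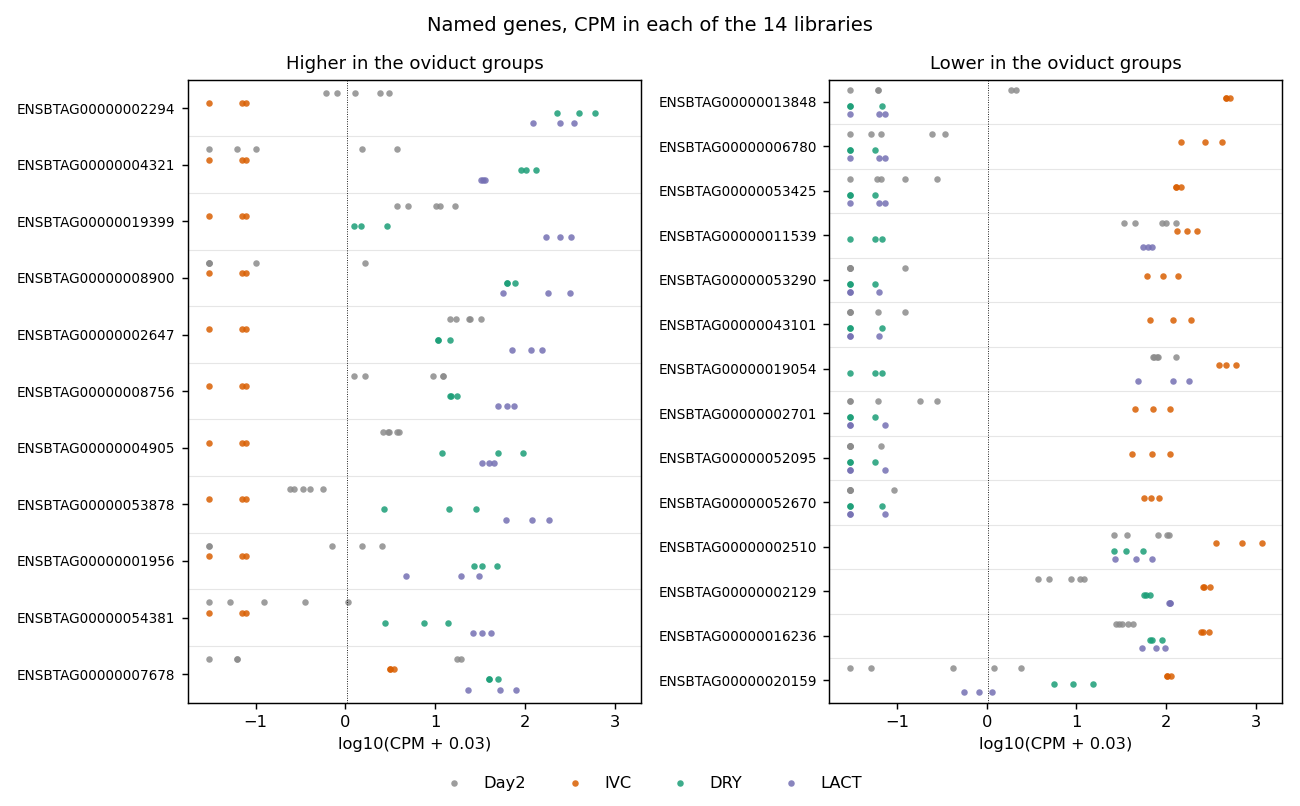
CPM of the named genes with the lowest FDR or the highest mean CPM among those without overlap, on a log10(CPM + 0.03) axis, with 1 point per library for Day 2 (grey), IVC (orange), DRY (green) and LACT (violet) and a dotted line at 1 CPM. On the left, 10 genes lie at the floor in IVC. ENSBTAG00000007678, drawn there as well though singled out after its values were seen, lies above the floor. On the right, 8 genes lie at the floor in both oviduct groups and 2 in DRY alone. The others on that side are expressed in every Day-4 library. They include ENSBTAG00000020159, also singled out after its values were seen.

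The mirror image was a set of genes expressed in culture and silent in both oviduct groups. There were 28 such genes among all tested, with at least 1 CPM in every IVC library and at most 3 counts in each of the 6 oviduct libraries, and 20 were called. Most were scarce on Day 2: their median Day-2 level was 0.0789 CPM and 6 of the 28 reached a mean of 1 CPM there. ENSBTAG00000013848 had the lowest FDR of the comparison. It stood at 467, 470 and 512 CPM in IVC and had at most 1 count in any oviduct library, so IVC was at least 4628-fold higher (FDR = 7.23e-07). On Day 2 it was at 0.798 ± 1.07 CPM (SD, n = 5), and IVC was above Day 2 (FDR = 3.48e-04).

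ENSBTAG00000006780 stood at 270, 148 and 420 CPM in IVC (at least 2682-fold higher, FDR = 8.76e-06), and ENSBTAG00000053425 at 128, 129 and 146 CPM (at least 1297-fold higher, FDR = 1.61e-05). ENSBTAG00000043101 was at 119, 189 and 66.5 CPM and ENSBTAG00000053290 at 92.0, 61.3 and 135 CPM in IVC, at least 1203-fold and 923-fold above the oviduct groups (FDR = 8.72e-05 for both). Neither gene had more than 3 counts in any Day-2 library, and both were silent in all 6 oviduct libraries. ENSBTAG00000002701, ENSBTAG00000052095 and ENSBTAG00000052670 repeated the pattern at 41.5 to 111 CPM in IVC, with lower bounds of 740-fold, 718-fold and 667-fold. The calls of all 8 genes held when any 1 of the 6 tested libraries was left out, with FDR of at most 0.0245.

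Genes expressed in all Day-4 libraries gave the smaller, measurable folds. ENSBTAG00000002510 stood at 694, 1168 and 358 CPM in IVC. It was at 55.3, 26.0 and 35.9 CPM in DRY and at 68.9, 27.2 and 46.6 CPM in LACT. Both oviduct groups lay below every IVC library and near the Day-2 level of 70.8 ± 37.4 CPM (SD, n = 5), and the mean over the tested libraries was 17.2-fold higher in IVC (log2 -4.11 ± 0.56 SE, FDR = 0.0103). Its call was lost without IVC replicate 2 or without either tested DRY library (highest FDR = 0.114), but it was also 1 of the 2 genes called when only well-counted genes were tested.

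The other of those 2 genes, ENSBTAG00000020159, was singled out after its values were seen. It stood at 102, 102 and 115 CPM in IVC, at 15.2, 5.65 and 9.18 CPM in DRY and at 0.527, 1.12 and 0.791 CPM in LACT, in steps that no library crossed. It was lower in the oviduct groups (log2 difference -5.19 ± 0.60 SE, FDR = 1.72e-03) and was called without any 1 of the 6 libraries. The DRY and LACT levels of this gene differed by 3.68 on the log2 scale, which did not pass the test (FDR = 0.0715).

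ENSBTAG00000002129, listed under the Golgi apparatus, stood at 267, 255 and 310 CPM in IVC, 60.4, 66.7 and 57.3 CPM in DRY and 108, 112 and 110 CPM in LACT, 3.26-fold higher in IVC (log2 -1.75 ± 0.31 SE, FDR = 0.0240). ENSBTAG00000016236 stood at 257, 304 and 244 CPM in IVC, 89.5, 66.1 and 69.1 CPM in DRY and 53.3, 96.6 and 76.7 CPM in LACT, 3.58-fold higher in IVC (FDR = 0.0428). In both, every oviduct library lay below every IVC library and above every Day-2 library. ENSBTAG00000021092, listed under the apical or basal plasma membrane, rose from 0.191 ± 0.107 CPM on Day 2 to 169, 199 and 159 CPM in IVC, but to 22.3, 25.8 and 21.8 CPM in DRY and 47.5, 85.2 and 67.8 CPM in LACT (FDR = 0.0246). ENSBTAG00000001788 of the same list stood at 92.4, 70.6 and 125 CPM in IVC, 34.6, 33.9 and 30.7 CPM in DRY and 10.49, 4.497 and 7.29 CPM in LACT (FDR = 0.0475). These 4 genes lost their call in every fit that left out 1 of the 6 libraries (FDR of 0.0615 to 0.519).

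A mean of 2 cow groups can be carried by one of them, and 40 of the 98 called genes also differed between DRY and LACT, against 81 of all genes tested (0.671%). They were 9 of the 25 higher genes and 31 of the 73 lower genes. The tests are not independent, since both use the same spread for each gene and a gene silent in a single cow group moves both contrasts. Among the called genes without overlap between oviduct and IVC libraries, 1 of 15 higher and 11 of 51 lower genes differed between DRY and LACT. Among those with overlap, the counts were 8 of 10 and 20 of 22. Of the 73 lower genes, 42 were silent in DRY but not in LACT and 4 the other way round.

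ENSBTAG00000007946, listed under oxidoreductases, shows how this arises. It stood at 98.8, 113 and 97.6 CPM in IVC and at 81.6, 159 and 122.7 CPM in LACT, with 1, 1 and 0 counts in DRY. The LACT libraries enclosed the IVC range, and LACT minus IVC was 0.18 on the log2 scale, yet the mean of the groups was called (FDR = 2.30e-04), as was DRY minus LACT (FDR = 4.30e-05). ENSBTAG00000020927, listed under fatty acid metabolism and oxidoreductases, was at 36.7, 65.8 and 16.1 CPM in IVC, 18.5, 19.8 and 19.1 CPM in LACT and 1, 1 and 0 counts in DRY (FDR = 7.55e-03). Its call held in 2 of the 6 fits that left out 1 library, and that of ENSBTAG00000007946 in all 6.

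In other genes LACT lay between the extremes. ENSBTAG00000019054 stood at 467, 606 and 392 CPM in IVC and 48.5, 178 and 118 CPM in LACT, with 1, 1 and 0 counts in DRY, although Day-2 embryos held 87.4 ± 23.8 CPM (FDR = 8.72e-05). ENSBTAG00000011539 stood at 171, 222 and 131 CPM in IVC and 55.9, 69.6 and 63.4 CPM in LACT, again with 1, 1 and 0 counts in DRY and 80.0 ± 40.2 CPM on Day 2 (FDR = 7.28e-05). In both, LACT was below IVC in every library and DRY held next to nothing of a transcript the embryos had before transfer. ENSBTAG00000010368 and ENSBTAG00000019365, both listed under endoplasmic reticulum and Golgi apparatus, had the same order, with 33.7 to 48.5 and 28.3 to 30.6 CPM in IVC, 3.94 to 5.10 and 1.97 to 15.8 CPM in LACT, and at most 1 count in DRY (FDR = 2.83e-03 and 0.0272). The call of the former held in 5 of the 6 fits that left out 1 library, and that of the latter in 0. When DRY and LACT were pooled as 1 group, so that their difference entered the spread, 31 genes were called in place of 98, and the 6 genes of these paragraphs were not among them.

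**Figure D3:**
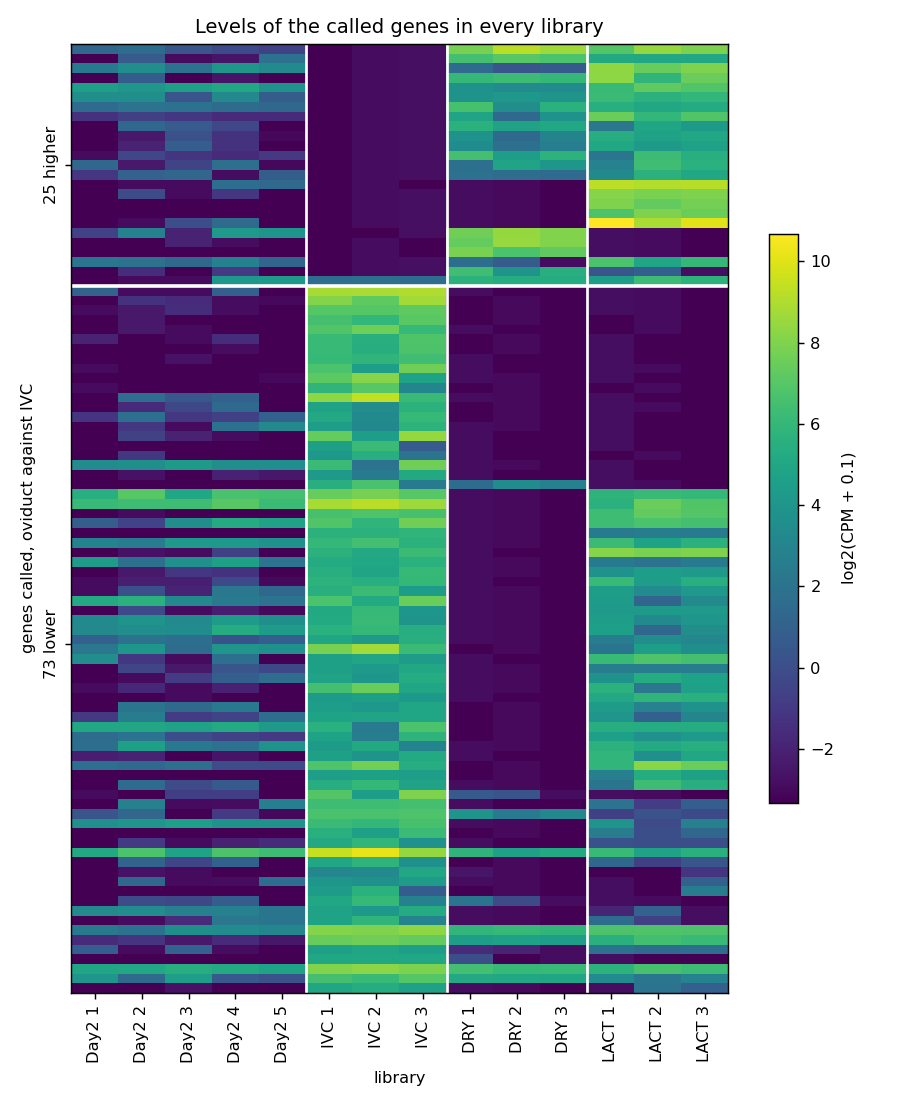
Levels of the 98 called genes (rows) in all 14 libraries (columns), as log2(CPM + 0.1), with 25 higher genes above the white line and 73 lower genes below it. The upper block is dark throughout IVC except in its last row, and the lower block is bright throughout IVC. Below the line, DRY is dark in most rows while LACT is bright in a large middle stretch.

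Beside the Day-2 libraries, IVC was above Day 2 for 60 of the 73 lower genes (FDR under 0.05 in the fit with the Day-2 libraries) and below it for 0, beside 24.8% and 17.9% of all genes tested. The mean of the oviduct groups was above Day 2 for 11 of the 73 and below it for 19, beside 25.6% and 23.9% of all genes tested. For the 25 higher genes the oviduct groups were above Day 2 in 17 and below it in 0, and IVC was below Day 2 in 7 and above it in 2. The contrasts with Day 2 share libraries with the comparison that chose these genes, so they describe where each gene started. Among called genes, 12 of the 25 and 33 of the 73 averaged 1 CPM or more before transfer, against 75.2% of all genes tested. With all 9 libraries the share among called genes was 71.1%, against 45.9% of the 98.

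Functions could be read only from the term lists that the study printed by Ensembl ID, since gene symbols were at hand for 26 genes. The study chose these lists for clusters of genes that differed on Day 4 in these same libraries, so the direction of a list is not independent evidence. Each is given by its median and its count of called genes, beside a median of -0.09, 0.812% called and 14.5% without overlap over all genes tested. Of all genes tested, 9.74% had an unadjusted p under 0.05, 3.26% higher and 6.48% lower in the oviduct groups. With all 9 libraries 13.1% were called, 5.12% higher and 7.94% lower. The counts given below for each list stand beside these shares.

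Lists of nuclear functions lay higher in the oviduct groups. The histone and nucleosome list, the proteins that package DNA, had a median log2 difference of 2.27 over 23 genes, with 2.48 for DRY minus IVC and 2.11 for LACT minus IVC. Its libraries did not overlap for 11 of 23 genes, all higher, but 0 genes were called by edgeR, 5 were higher at an unadjusted p under 0.05, and 7 were called with all 9 libraries. ENSBTAG00000048743 stood at 1.04 and 0.0961 CPM in the tested IVC libraries, 8.78 and 16.0 CPM in DRY and 18.6 and 15.6 CPM in LACT (log2 4.66 ± 1.37 SE, FDR = 0.267). ENSBTAG00000051969 stood at 12.1 and 2.26 CPM in IVC, 46.4 and 32.7 CPM in DRY and 41.2 and 33.3 CPM in LACT (log2 2.42 ± 0.80 SE, FDR = 0.353). Both are also on the list for chromatin silencing, which had a median of 3.34 over 5 genes with 0 called, 2 at an unadjusted p under 0.05 and 3 called with all 9 libraries. Histone genes are near-identical copies of one another, so counts may be split among them. ENSBTAG00000047206, also on the histone list, stood at 35.8 and 19.02 CPM in IVC, 153 and 96.2 CPM in DRY and 71.0 and 34.4 CPM in LACT, with overlap between culture and LACT (FDR = 0.353).

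The methylation list had a median of 1.63 over 41 genes, with 1 called (ENSBTAG00000004905) and 16 without overlap, all higher. DNA binding had a median of 1.74 over 83 genes with 2 called (ENSBTAG00000002294 and ENSBTAG00000008756) and 51 without overlap. The lists for zinc finger proteins (median 1.38, 61 genes, 27 without overlap) and for centrosome and basal body (1.19, 59 genes, 26 without overlap) had 0 called by edgeR, 9 and 11 at an unadjusted p under 0.05, and 23 and 21 called with all 9 libraries. DRY and LACT had medians of similar size in each of these lists. In DNA repair (0.82, 14 genes) and cell cycle and division (0.58, 24 genes) the medians of DRY minus IVC (1.52 and 0.92) stood above those of LACT minus IVC (0.04 and 0.23). Neither list had a gene called or one with an unadjusted p under 0.05, with 6 libraries, and 0 were called with all 9.

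Lists of the secretory and endocytic route lay lower in the oviduct groups. The endoplasmic reticulum, where membrane and secreted proteins are made, had a median of -1.21 over 96 genes with 2 called, 48 lower at an unadjusted p under 0.05 and 51 without overlap. The Golgi apparatus, which sorts them onward, had a median of -1.30 over 65 genes with 5 called, among them ENSBTAG00000002129, ENSBTAG00000022989 and ENSBTAG00000005260. ENSBTAG00000022989 stood at 124, 21.9 and 255 CPM in IVC against 1.44, 1.12 and 0.0360 CPM in DRY, while LACT never exceeded 1 count (FDR = 6.71e-04). ENSBTAG00000005260, also on the integrin binding list, stood at 23.2, 9.06 and 53.8 CPM in IVC and had at most 1 count in any oviduct library (at least 296-fold, FDR = 5.41e-03). The IVC libraries of both genes were themselves far apart, and the first lost its call without IVC replicate 3 or either DRY library, the second without IVC replicate 3.

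The endosome list had a median of -1.34 over 33 genes with 0 called by edgeR, 11 lower at an unadjusted p under 0.05 and 20 called with all 9 libraries. The extracellular exosome list, for proteins carried in released vesicles, had a median of -1.15 over 8 genes, 7 of them without overlap and 7 with an unadjusted p under 0.05, with 0 called and 7 called with all 9 libraries. ENSBTAG00000010062 of that list stood at 430 and 224 CPM in IVC, 144 and 207 CPM in DRY and 138 and 98.1 CPM in LACT (log2 -1.18 ± 0.36 SE, FDR = 0.297). Integrin binding (-1.18, 9 genes, 1 called), apical and basal plasma membrane (-1.36, 33 genes, 2 called) and protein kinases (-1.56, 25 genes, 0 called, 14 at an unadjusted p under 0.05 and 17 called with all 9) lay on the same side. The medians of DRY and LACT minus IVC were -0.88 and -1.81 for the endosome, -0.88 and -1.65 for the plasma membrane list and -0.92 and -2.21 for protein kinases. The proteasome, which degrades tagged proteins, had a median of -1.11 over 5 genes, with 0 called, 4 at an unadjusted p under 0.05 and 5 called with all 9 libraries. Its ENSBTAG00000014440 stood at 157 and 80.5 CPM in IVC, 18.96 and 37.02 CPM in DRY and 68.3 and 39.9 CPM in LACT (FDR = 0.271).

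Among the lists of metabolism, fatty acid metabolism had a median of -1.73 over 9 genes, with -3.09 for DRY minus IVC and -0.37 for LACT minus IVC. In it 1 gene was called, 4 were lower at an unadjusted p under 0.05, 4 were called with all 9 libraries and 1 was without overlap. The oxidoreductase list had a median of -1.81 over 40 genes, with -2.74 for DRY and -0.17 for LACT. In it 2 genes were called, 12 were lower at an unadjusted p under 0.05, 17 were called with all 9 libraries and 9 were without overlap. Differences between DRY and LACT were not tested for any list. In the citrate cycle list the signs were opposite, with 0.40 for DRY and -1.14 for LACT minus IVC over 5 genes and 0 called by edgeR, 0 at an unadjusted p under 0.05 and 0 with all 9 libraries. The ribosome list had a median of -0.53 over 39 genes, with 0 called by edgeR, 7 lower at an unadjusted p under 0.05 and 14 called with all 9 libraries.

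Lists under the same terms from the study's clusters of genome activation, which the study chose as genes that change from Day 2 without differing between the Day-4 groups, had medians between -0.24 and 0.36, and that choice favours values near 0. Their medians were 0.02 for DNA binding (50 genes), -0.07 for methylation (38), -0.08 for zinc finger (37), 0.11 for mTOR signalling (20), -0.11 for the endoplasmic reticulum (18), -0.14 for the proteasome (15), -0.18 for the ribosome (71), -0.19 for oxidative phosphorylation (56), -0.24 for translation initiation (20), 0.12 for the centrosome (32), 0.13 for cell cycle and division (36), 0.32 for DNA repair (19) and 0.36 for protein kinases (25). Over these 13 lists 0 genes were called by edgeR and 1 (mTOR list, lower) had an unadjusted p under 0.05. With all 9 libraries the calls were 4 lower for methylation, 2 lower for DNA binding, 1 lower for mTOR, 1 lower for DNA repair, 3 lower for the ribosome, 1 higher and 3 lower for oxidative phosphorylation and 0 in the other lists. The median log2 levels of the proteasome, ribosome, oxidative phosphorylation and translation initiation lists stood 2.13 to 4.00 above Day 2 in IVC and 1.95 to 3.67 above it in the oviduct groups.

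**Figure D4:**
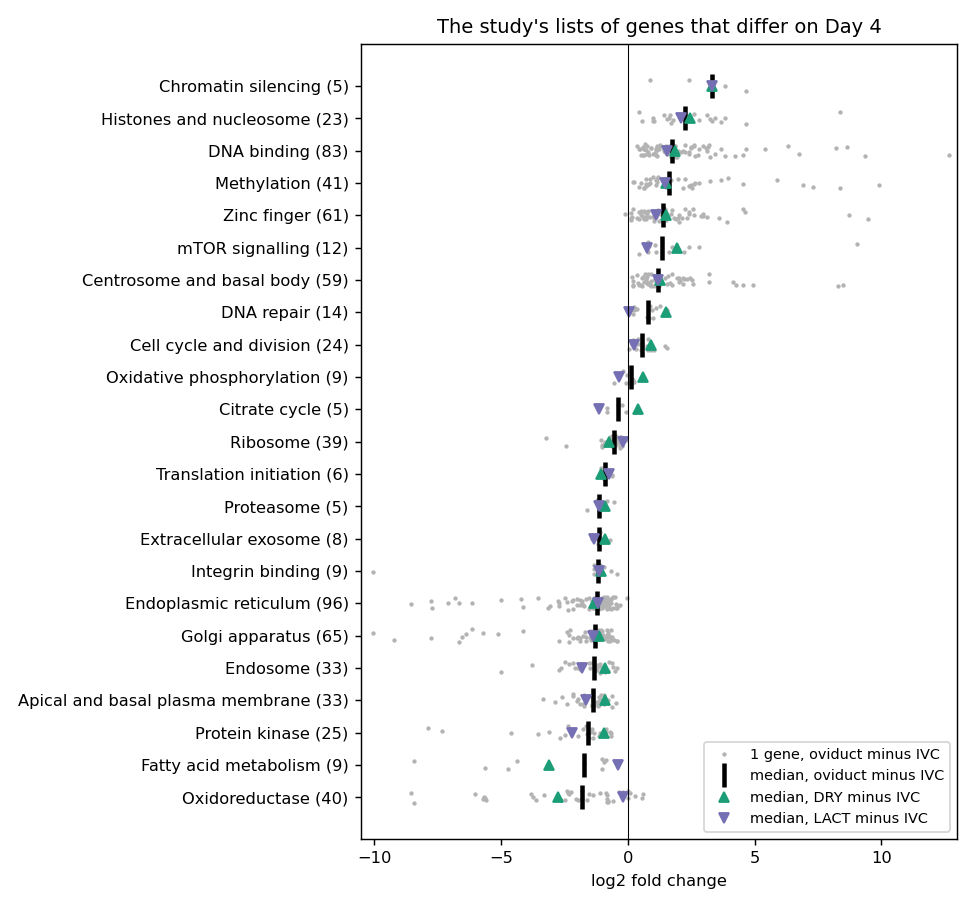
Log2 fold changes of the study's Day-4 term lists, with the number of genes tested in brackets: grey points are single genes (oviduct minus IVC), black bars their medians, and triangles the medians of DRY minus IVC (green, up) and LACT minus IVC (violet, down). Nuclear lists stand right of 0 and membrane lists left of it. The triangles lie close together for DNA binding, centrosome and endoplasmic reticulum, and apart for fatty acid metabolism, oxidoreductase, citrate cycle, DNA repair and protein kinase.

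Genes of mTOR signalling, the pathway that couples amino acids and growth factors to protein synthesis, had symbols in 11 cases. These genes, like the initiation factors and respiratory genes below, are those the study had picked as differing between the Day-4 groups. That choice was made in these same libraries, so a direction shared within a set is not independent evidence. The median log2 difference was 1.61, with 2.21 for DRY minus IVC and 0.86 for LACT minus IVC, and all 11 were positive (lowest 0.45). None was called by edgeR, 3 had an unadjusted p under 0.05, 5 were called with all 9 libraries, and the libraries of 8 did not overlap. Over all genes tested these shares were 0.812%, 9.74%, 13.1% and 14.5%. LAMTOR4, a subunit of the Ragulator complex on the lysosome, had 0, 1 and 1 counts in IVC, 25.2, 202 and 118 CPM in DRY and 0.220, 10.9 and 5.27 CPM in LACT (FDR = 0.298). RRAGB, a Rag GTPase that Ragulator anchors, stood at 2.72, 0.559 and 5.57 CPM in IVC, 57.5, 12.98 and 31.6 CPM in DRY and 12.8, 12.8 and 12.8 CPM in LACT (log2 2.81 ± 1.12 SE, FDR = 0.450). TBC1D7, a subunit of the TSC complex that restrains mTORC1, stood at 4.498, 4.11 and 5.43 CPM in IVC, 28.7, 25.0 and 23.9 CPM in DRY and 11.5, 24.1 and 18.3 CPM in LACT (log2 2.20 ± 0.82 SE, FDR = 0.412). In each of the 3 genes every oviduct library lay above every IVC library, though LAMTOR4 in LACT replicate 1 rested on 5 counts.

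The other mTOR genes spanned activators and brakes alike. SESN2, a leucine sensor that inhibits mTORC1, differed by 2.41, AKT1S1, another inhibitor, by 1.61, and MIOS, of the activating GATOR2 complex, by 1.13. RICTOR, the core of mTORC2, differed by 0.45, the lowest of the list (FDR = 0.763). The log2 difference from Day 2 was smaller in size in the oviduct groups than in IVC for 8 of the 11 genes, among them SESN2 (-2.58 against -4.98) and TBC1D7 (-0.82 against -3.02). It was larger for the other three, RRAGB (10.96 against 8.17), TTI1 (1.68 against 0.88) and RICTOR (0.74 against 0.29).

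Translation initiation factors, which the study chose in the same way, lay on the other side in all 6 cases. Their median was -0.91 (DRY -1.04, LACT -0.74), with 0 called by edgeR, 2 at an unadjusted p under 0.05 and 3 called with all 9 libraries. The shares over all genes tested were 0.812%, 9.74% and 13.1%. EIF3F, a subunit of the scaffold that loads the small ribosomal subunit, stood at 145, 193 and 117 CPM in IVC, 74.6, 74.1 and 66.7 CPM in DRY and 65.7, 82.2 and 74.8 CPM in LACT (log2 -1.06 ± 0.36 SE, FDR = 0.369). The oviduct groups had nearly the same mean, 74.3 CPM in DRY and 73.9 CPM in LACT over the tested libraries. EIF3CL, whose reads may be shared with its near copy EIF3C, stood at 196, 247 and 172 CPM in IVC, 67.7, 127 and 91.0 CPM in DRY and 134, 100 and 116 CPM in LACT (FDR = 0.432). EIF3J stood at 177, 210 and 166 CPM in IVC, 51.4, 129 and 86.2 CPM in DRY and 142, 75.5 and 107 CPM in LACT (FDR = 0.535). All 3 stood above their Day-2 levels in IVC, by 2.89, 1.62 and 2.85 on the log2 scale, and by 1.83, 0.65 and 1.93 in the oviduct groups.

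Genes of the respiratory chain and ATPases had a median log2 difference of 0.13 over 9 genes, made of 0.59 for DRY minus IVC and -0.35 for LACT minus IVC. Among them 0 were called by edgeR, 0 had an unadjusted p under 0.05 and 0 were called with all 9 libraries. Of all genes tested, 0.812%, 9.74% and 13.1% did so. CYTB, encoded in mitochondrial DNA, stood at 17686, 20013 and 17538 CPM in IVC, 26445, 27814 and 24428 CPM in DRY and 18947, 13663 and 16165 CPM in LACT, so that the IVC mean lay between those of the cow groups while the IVC and LACT libraries overlapped (log2 0.17 ± 0.24 SE, FDR = 0.904). ATP8, also mitochondrial, had the same order of means (log2 0.20 ± 0.28 SE, FDR = 0.902), and the sign of both genes changed with a replicate block. ATP5MF, a nuclear-encoded subunit of the ATP synthase, stood at 81.0, 101 and 71.6 CPM in IVC, 109, 87.4 and 87.2 CPM in DRY and 39.8, 32.5 and 35.9 CPM in LACT (log2 -0.53 ± 0.39 SE, FDR = 0.756).

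**Figure D5:**
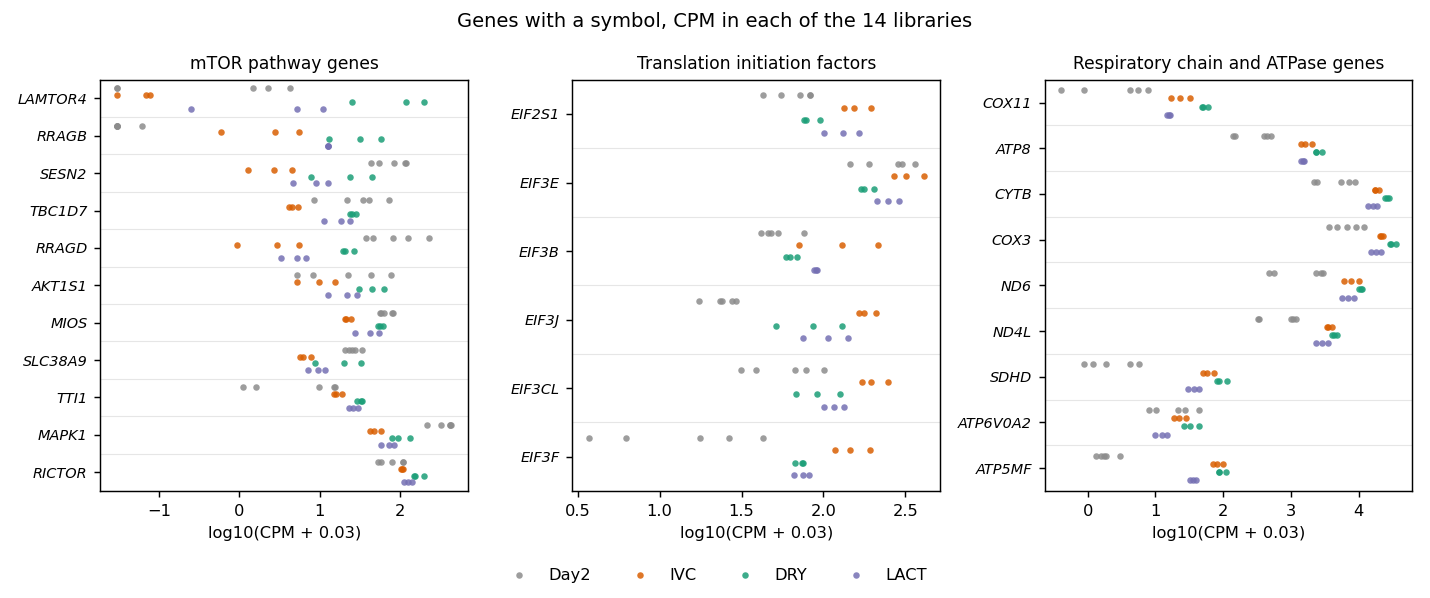
CPM of the 26 genes with a symbol on a log10(CPM + 0.03) axis, with 1 point per library for Day 2 (grey), IVC (orange), DRY (green) and LACT (violet). DRY and LACT lie right of IVC for most mTOR genes and left of it for the initiation factors, while the IVC mean lies between those of DRY and LACT for most respiratory genes.

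Setting one group apart from the mean of the others gave sets of like size in all 3 cases. Against 98 genes for IVC, 83 genes were called for DRY apart from LACT and IVC (0.688%), with 24 higher (0.199%) and 59 lower (0.489%), and 77 for LACT apart from DRY and IVC (0.638%), with 72 higher (0.597%) and 5 lower (0.0414%). These contrasts share their libraries and stand side by side only. On presence alone, 72 genes were silent in DRY only, 8 in LACT only, and 27 in IVC only, while 28 were present in IVC only, 29 in LACT only and 9 in DRY only. The root mean square log2 CPM difference between an oviduct and an IVC library was 2.41 (2.24 to 2.58 over 8 pairs), against 2.49 between DRY and LACT libraries and 1.91, 2.43 and 2.23 within IVC, DRY and LACT. The distance from oviduct to culture was therefore, on average, no greater than that between the cow groups. It was 2.53 from DRY to IVC and 2.29 from LACT to IVC, so DRY lay slightly further from culture than from LACT. With 4 against 2 libraries no exact permutation test can go below 0.0667 (two-sided), so none was run.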

How the data were processed

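The authors deposited read counts per Ensembl gene for 14 libraries, made with Trimmomatic, STAR 2.7.0b and featureCounts (Subread 2.0.3) on bosTau9, and the deposited values are whole-number counts without normalization. The strand setting and annotation release are not given in the sources used here. From these counts, genes reaching 1 CPM in 3 or more of the 9 Day-4 libraries were kept (12069 of 27607). They were scaled by TMM and fitted with edgeR 4.0.16 in R 4.3.3 (limma 3.58.1, robust quasi-likelihood, 1 coefficient per group, contrast (DRY + LACT)/2 minus IVC, Benjamini-Hochberg). The fit used 6 libraries, without the 3 at the mean of their group. The study's own design, all 9 libraries with a likelihood ratio test and weights, was an alternative, as were DESeq2 1.42.0, other filters, scalings and groupings, a replicate block, and leaving out libraries. CPM are after TMM over 14 libraries. Each SE of a log2 difference is its size divided by the square root of the quasi-likelihood F statistic, not a separate estimate. Group means and folds are over the tested libraries, and "at least" folds are against 3 counts per library. Groups came from the labels, and n is pools: 1 cow each in vivo, whereas for IVC nothing states separate cultures, so its spread may be technical.

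The genes named were the 10 in each direction with the lowest FDR and the 5 with the highest mean CPM among called genes without overlap, the called members of the lists, and, for 7 lists with none, the 3 with the lowest FDR. The members and lists were chosen with earlier results of these data known. Lists by symbol, cell type markers and promoter letters were not analysed here, since the tables used pair no Ensembl ID with a symbol or sequence outside 26 genes. The tests were tried on simulated data.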

Additional observations from a re-analysis of the deposited data

Results flagged for a closer look

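DRY and LACT differed from each other (edgeR, FDR under 0.05) in 7 of the genes named, all lower in DRY. The log2 differences of DRY minus LACT were -6.90 for ENSBTAG00000019399, -10.74 for ENSBTAG00000011539, -11.59 for ENSBTAG00000019054, -6.93 for ENSBTAG00000010368, -8.80 for ENSBTAG00000019365, -9.02 for ENSBTAG00000020927 and -11.67 for ENSBTAG00000007946. In 6 of these genes DRY had at most 1 count in every library, so the size of the fitted value depends on the prior count. The tested DRY libraries also detected fewer genes than the others, and the part of this in the result was not tested.

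Among the 5 Day-2 libraries, 1 stood apart on the log2 CPM scale in several named genes, with a gap to the nearest library, as a share of the whole range, of 0.811 for ENSBTAG00000008900, 0.787 for ENSBTAG00000019054 and 1 for ENSBTAG00000053290, ENSBTAG00000052095, ENSBTAG00000052670, ENSBTAG00000007946 and RRAGB (ENSBTAG00000012980). A value of 1 means that all other libraries had 0 counts, and the counts there were 3, 1, 2, 1 and 1. In all, 54 sets of 5 were tried. Where all other libraries had 0 counts the value is 1 whatever the last library held. No chance rate of flags can therefore be given for such sets.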

How the results depend on the processing

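The count of 98 genes rested on the choice of libraries, test and filter. It was 1576 with all 9 libraries, 2461 with the likelihood ratio test and weights on these, 487 with DESeq2's Wald test (236 higher and 251 lower), 608 without a filter, 2 with at least 10 counts in every library, 31 with DRY and LACT as 1 group and 45 at an FDR under 0.01. Of the 98, the called genes that also differed between DRY and LACT numbered 40, and under the same alternatives 391, 794, 147, 266, 0 and, at an FDR under 0.01, 14, with 22 when Day 2 was in the fit. Called members of the gene lists numbered 12, and 287, 386, 57, 56, 0 and, as 1 group, 4. The count stayed within 1.5 times with DESeq2 size factors (96), without the 10 genes of highest counts (94), with 1 CPM in 2 of the 6 libraries (100) and with Day 2 in the fit (76, of which 44 were among the 98). Leaving out 1 of the 6 libraries gave 56 (without IVC replicate 2 or 3) to 84 genes, of which 43 to 59 were among the 98. It was 59 without either DRY library, and the split then moved to 26 higher and 33 lower without DRY replicate 1. Genes differing between DRY and LACT as well then numbered 13 (without either DRY library) to 34, and list members 5 (without IVC replicate 3) to 10. With all 9 libraries the leave-one-out counts ran from 344 (without IVC replicate 1) to 1956, with 121 to 398 and 63 to 335 for the other counts, and were 822 without IVC replicate 2, 644 without DRY replicate 3 and 584 without LACT replicate 3. The share of called genes at 1 CPM or more on Day 2 was 45.9%, and 71.1% for the genes called with all 9 libraries. The cause of these shifts was not tested, beyond the fewer genes tested or fewer samples that some alternatives hold by construction.

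Whether replicate numbers pair the samples was not tested. Correlations of deviations between same-numbered libraries were -0.04 to 0.20, the highest between replicate 3 of DRY and of LACT, both midway libraries. With a replicate block the fit on 6 libraries called 104 genes, 58 of them among the 98, and that on 9 called 846, with 193 differing between DRY and LACT and 163 list members. For single named genes the sign changed 3 times, in uncalled genes: ATP8 (-0.168) and CYTB (-0.0357) with the block on 6 libraries, and ATP8 (-0.0158) without IVC replicate 3 (up to 0.522 without another library). It held in the rest of 646 tries of other alternatives, where 56 calls were lost and 53 gained, and of 780 tries that left out a library, where 58 were lost and 110 gained. Of 33 named genes called, 18 kept the call without any 1 of the 6 libraries and 5 lost it in each. The promoter letters were not run. Low counts limit the silent genes: a gene at 0 or 1 count in 2 libraries has no spread to measure.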
